A study of Mus musculus with 12 samples.

Results

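The urea cycle enzymes were followed in livers of wild-type (WT) and cytochrome P450 reductase null (POR-null) mice given a quercetin diet or a control diet. The members were the probe sets of an Affymetrix 430A array whose annotation held exactly 1 symbol out of Cps1, Otc, Ass1, Asl, Arg1, Nags and Gls2. The rule used gene names and no measured value, although the list was drawn up with earlier results of these data known. The rule found 7 of the 22690 probe sets, which measured 5 of the 7 listed genes among 12393 genes on the array with a probe set of their own: Otc had 3 probe sets, and Nags, Cps1, Asl and Arg1 had 1 each. The argininosuccinate synthase gene Ass1, whose probe set also carried the symbol Gm5424, and the glutaminase gene Gls2 were not analysed here.

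The 4 groups were POR-null mice on quercetin, POR-null mice on the control diet, WT mice on quercetin and WT mice on the control diet. All were male, labelled C57BL/6, and aged 6 to 8 weeks, and all spent 14 days on the powdered soya-free RM3 diet first. The quercetin groups then received that diet with 6.2 g of the plant flavonol quercetin per kg, which the labels also give as 7 mg per mouse, and the control groups received it without quercetin. Livers were taken after 24 h on the test diet. Each array held RNA pooled from the livers of 3 mice, and each group had 3 arrays, 12 in all, so that a value stands for a pool and the spread between single mice was not measured. The labels do not say in which cells POR is absent or how it was deleted, and Por itself was not analysed here.

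The urea cycle turns ammonia and the nitrogen of aspartate into urea, and it runs mainly in the hepatocytes around the portal vein. N-acetylglutamate synthase (Nags) makes the activator that carbamoyl phosphate synthetase (Cps1) requires, and Cps1 and ornithine transcarbamylase (Otc) work inside mitochondria. Argininosuccinate synthase and argininosuccinate lyase (Asl) build arginine in the cytosol, and arginase (Arg1) splits it into urea and ornithine. Transcription of these genes is known to follow protein intake, fasting, glucagon and glucocorticoids. POR passes electrons to the microsomal cytochromes P450.

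Values were log2 intensities as deposited, ranging from 2.57 to 14.17 with a median of 5.96, and array medians lay between 5.93 and 5.99. Arrays of the same group correlated at 0.988 to 0.993 over all probe sets. POR-null and WT arrays lay apart on principal component 1, which held 33.0% of the variance. The next component, with 12.4%, set WT control arrays 2 and 3 apart from WT control array 1 and the WT quercetin arrays. The 8 measured of 10 hepatocyte markers averaged 12.8 to 13.1 on every array, none below the median of all values. Markers of exocrine pancreas, 9 measured of 11, averaged 7.06 to 9.98 in POR-null quercetin, 6.74 to 8.50 in POR-null control, 6.44 to 8.43 in WT quercetin and 6.82 to 8.70 in WT control arrays. Macrophage and Kupffer cell markers, 10 of 10, averaged 7.52 to 7.74, 7.39 to 7.74, 7.16 to 7.88 and 6.97 to 7.40 in the same order of groups. Their part in the results was not tested, and in whole liver fewer cells of a type and less RNA per cell cannot be told apart.

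The RefSeq promoter table for GRCm38.p6 held 2 of the 5 measured genes, Nags and Otc, and these windows are shown. Each runs from 250 bases before to 50 bases after the annotated start, on the plus strand, and sites farther away were not searched. Nags lies at chr11:102145263-102145562 and Otc at chrX:10252055-10252354. Capitals mark matches to any of the 7 motifs searched on both strands, with no overlaps between matches.
Nags: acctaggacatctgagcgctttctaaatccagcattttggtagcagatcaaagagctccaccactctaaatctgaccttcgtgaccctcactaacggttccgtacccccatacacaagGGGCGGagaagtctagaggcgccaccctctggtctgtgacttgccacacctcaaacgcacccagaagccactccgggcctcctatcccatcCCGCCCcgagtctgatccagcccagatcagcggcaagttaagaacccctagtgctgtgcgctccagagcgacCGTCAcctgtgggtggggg
Otc: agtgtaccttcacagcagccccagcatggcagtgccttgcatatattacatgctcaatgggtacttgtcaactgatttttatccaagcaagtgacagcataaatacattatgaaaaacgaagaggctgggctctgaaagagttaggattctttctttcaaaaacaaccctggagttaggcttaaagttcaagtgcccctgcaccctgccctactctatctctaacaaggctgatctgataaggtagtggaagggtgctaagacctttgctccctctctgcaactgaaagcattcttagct
The Nags window held 3 matches. The Sp1 motif GGGCGG stood at bases 119 to 124 on the plus strand and at bases 210 to 215 on the minus strand, and the cAMP response element core TGACG stood at bases 282 to 286 on the minus strand. The Otc window held 0 matches, which says only that these letters are not in it. Of 32851 promoter windows of the same length, 35.7% held GGGCGG, 20.8% TGACG, 13.6% the TATA box TATAAA, 37.4% CCAAT, 26.4% the C/EBP core GCAAT, 19.0% the glucocorticoid receptor core TGTTCT and 14.4% the HNF4 core CAAAGT. GC content was 57.7% for Nags and 44.3% for Otc.

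The response to quercetin was the first question. In WT livers the values of all 7 probe sets averaged higher on quercetin, with the most separated arrays for Arg1, Asl and Nags. In POR-null livers 4 of the 7 averaged higher, among them Arg1 and Asl. No difference passed the test across all probe sets, limma with Benjamini-Hochberg adjustment at 0.05, which also called 0% of the 22626 probe sets tested in either genotype. The differences below are therefore measured sizes with their errors, not calls, and the plot of values by array shows the points behind them.

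**Figure D1:**
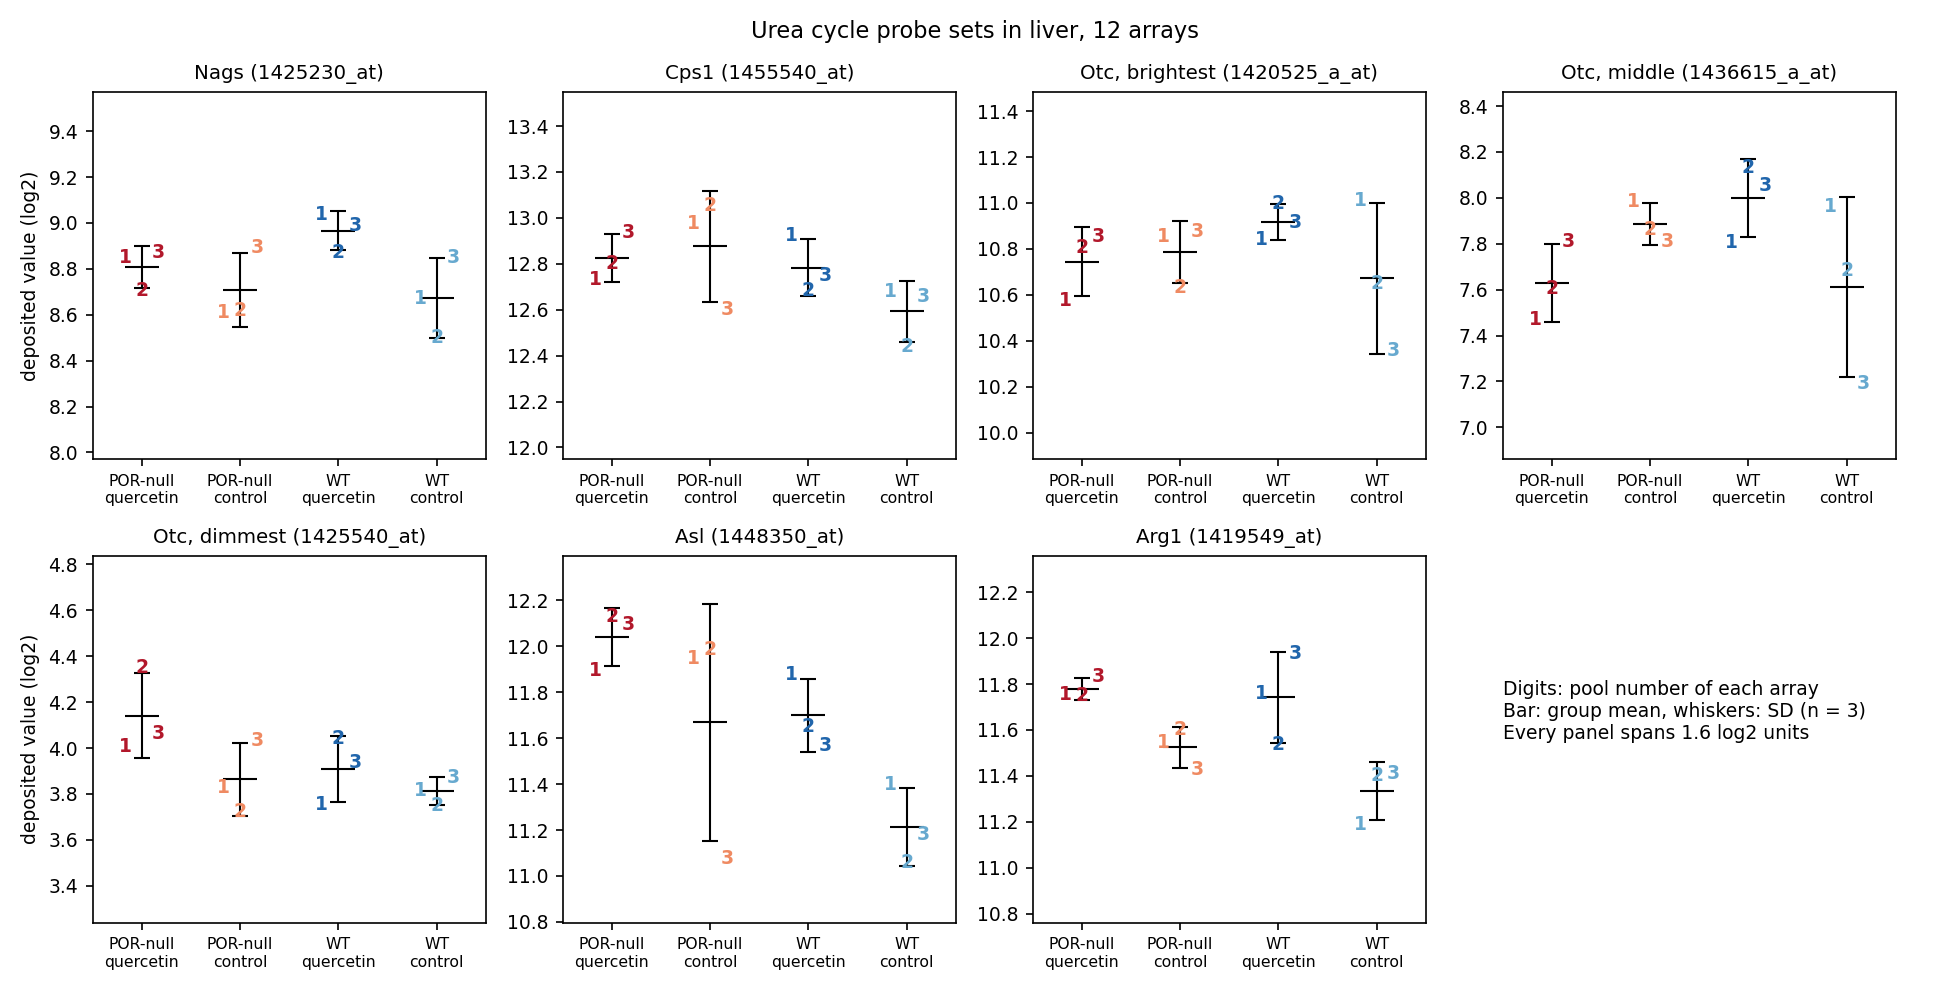
Log2 intensity of each of the 7 urea cycle probe sets on each of the 12 arrays, by genotype and diet, with group means and SD (n = 3 arrays, each a pool of 3 mice). For Arg1 the quercetin arrays lie above the control arrays in both genotypes, while for Asl POR-null control array 3, at 11.08, lies far below the other POR-null control arrays.

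Arg1, the enzyme that releases urea, had the lowest p of the members in WT livers. Its log2 intensity was 11.76, 11.54 and 11.93 in WT quercetin arrays, against 11.19, 11.40 and 11.41 in WT control arrays. Every WT quercetin array lay above every WT control array. The difference was 0.41 ± 0.10 (SE, n = 3 each; 95% interval 0.19 to 0.63), or 1.33-fold, with an adjusted p of 0.355. In POR-null livers Arg1 read 11.75, 11.75 and 11.84 on quercetin, against 11.54, 11.60 and 11.43 on the control diet. These groups did not overlap either, and the difference was 0.25 ± 0.10 (0.04 to 0.47; adjusted p = 0.670). Averaged over both genotypes, Arg1 differed by 0.33 ± 0.07 (0.18 to 0.49), with rank 35 by p among all probe sets and an adjusted p of 0.232.

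Asl, which cuts argininosuccinate into arginine and fumarate, read 11.88, 11.65 and 11.57 in WT quercetin arrays, against 11.40, 11.06 and 11.18 in WT control arrays. Here too the groups did not overlap, and the difference was 0.49 ± 0.19 (0.08 to 0.89; 1.40-fold; adjusted p = 0.521). In POR-null livers Asl read 11.90, 12.13 and 12.09 on quercetin, against 11.95, 11.99 and 11.08 on the control diet. Array 3 alone was low in the control group, and the other control arrays lay among the quercetin arrays. The difference of 0.37 ± 0.19 (-0.03 to 0.77, adjusted p = 0.743) was 0.07 without that array. Pancreas markers averaged 8.50 on it, the highest of its group, and 9.98 on POR-null quercetin array 3, where Asl read 12.09. Their part in the Asl values was not tested. Averaged over genotypes the difference was 0.43 ± 0.13 (adjusted p = 0.373).

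Nags, whose product switches Cps1 on, read 9.04, 8.87 and 8.99 in WT quercetin arrays, against 8.67, 8.50 and 8.85 in WT control arrays. The groups met without overlapping, with a difference of 0.29 ± 0.11 and an adjusted p of 0.498. In POR-null livers it read 8.85, 8.70 and 8.87 on quercetin, against 8.61, 8.62 and 8.89 on the control diet. These groups overlapped, and the difference was 0.10 ± 0.11 (adjusted p = 0.870). Averaged over genotypes it was 0.20 ± 0.08 (adjusted p = 0.461).

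Cps1, which fixes ammonia into carbamoyl phosphate, read 12.92, 12.68 and 12.75 in WT quercetin arrays, against 12.68, 12.44 and 12.66 in WT control arrays. The lowest quercetin array and the highest control array were nearly equal, and the difference was 0.19 ± 0.12 (adjusted p = 0.671). In POR-null livers Cps1 read 12.73, 12.80 and 12.94 on quercetin, against 12.97, 13.06 and 12.60 on the control diet. The control arrays enclosed the quercetin arrays, as array 3 was again the lowest of them, and the difference was -0.05 ± 0.12 (adjusted p = 0.943). It lay between -0.19 and 0.036 over the fits that left out 1 array, and the difference averaged over genotypes was 0.07 ± 0.08.

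Otc, which joins carbamoyl phosphate to ornithine, had 3 probe sets that did not give 1 pattern. The brightest read 10.842, 10.998 and 10.914 in WT quercetin arrays, against 11.01, 10.65 and 10.36 in WT control arrays. The control arrays spread over most of the range, and the difference was 0.25 ± 0.14 (adjusted p = 0.646). In POR-null livers the same probe set read 10.58, 10.80 and 10.86 on quercetin, against 10.86, 10.63 and 10.88 on the control diet, a difference of -0.04 ± 0.14 (adjusted p = 0.966). The middle probe set read 7.81, 8.13 and 8.05 in WT quercetin arrays, against 7.96, 7.68 and 7.19 in WT control arrays. Its WT difference was 0.39 ± 0.16 (adjusted p = 0.547), although the groups overlapped. Both WT values moved with the control arrays: the middle probe set's was 0.175 without WT control array 3 and 0.562 without array 1, and the brightest one's was 0.0885 and 0.416. In POR-null livers it read 7.47, 7.60 and 7.81 on quercetin, against 7.99, 7.86 and 7.81 on the control diet. Quercetin array 3 met the lowest control array and the others lay below all control arrays, and the difference was -0.26 ± 0.16 (adjusted p = 0.789). The dimmest stayed between 3.72 and 4.35 on all arrays, below the median of all values, so that little signal stands behind it. Its quercetin differences were 0.28 ± 0.11 in POR-null livers (adjusted p = 0.659) and 0.10 ± 0.11 in WT livers (adjusted p = 0.836). Averaged over genotypes the differences were 0.10 ± 0.10 for the brightest, 0.07 ± 0.11 for the middle and 0.19 ± 0.08 for the dimmest Otc probe set.

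Counted together, 7 of 7 member probe sets lay above 0 in the WT quercetin contrast, against 48.8% of all probe sets. In that contrast 4 had an unadjusted p under 0.05 with a higher value on quercetin (Arg1, Nags, Asl and the middle Otc probe set), against 4.27% of all. In the same contrast 4 had quercetin arrays wholly above the control arrays (Arg1, Asl, Nags and Cps1), against 5.67% of all. The member median was 0.29, against -0.0037 over all probe sets tested. Markers of some other cells lay above 0 in this contrast too. They included 10 of 10 macrophage and Kupffer cell markers (median 0.26) and 8 of 8 endothelial markers (median 0.11), though 0 passed the adjusted threshold. Macrophage and Kupffer cell markers averaged 7.88 on WT quercetin array 3 but 7.16 and 7.19 on arrays 1 and 2, against 7.40 on WT control array 1. Of 8 hepatocyte markers, 6 lay above 0 (median 0.02). Of the other lists, 5 of 7 lymphoid, 5 of 8 stellate and matrix and 1 of 6 cholangiocyte markers did. For erythroid markers it was 1 of 3, and for exocrine pancreas markers 0 of 9 (median -0.37). Endothelial markers averaged 6.73 to 6.82 in WT quercetin arrays, against 6.56 to 6.72 in WT control arrays, and their part in the members' values was not tested. In POR-null livers 4 of 7 lay above 0 (48% of all) and 2 had an unadjusted p under 0.05 (the dimmest Otc probe set and Arg1; 3.53% of all). Only Arg1 among the members had quercetin arrays wholly above the control arrays there, against 6.62% of all, and the member median was 0.10, against -0.0063. Averaged over genotypes, 7 of 7 lay above 0 (47.9% of all) and the median was 0.19, against -0.0053. In that contrast 4 had an unadjusted p under 0.05 with a higher value on quercetin, against 4.54% of all. They were Arg1, Asl, Nags and the dimmest Otc probe set, behind which little signal stands. The 7 probe sets come from 5 genes on the same arrays and are not independent of each other.

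**Figure D2:**
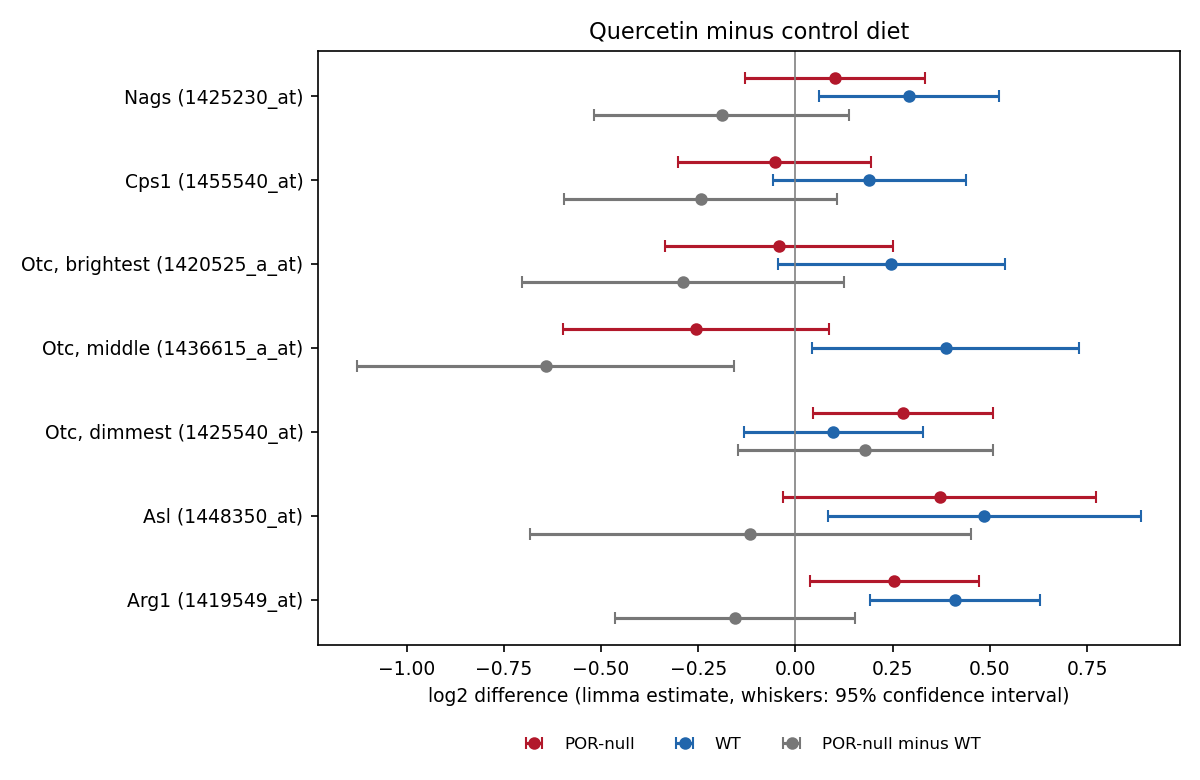
Quercetin minus control log2 difference with its 95% interval for each of the 7 probe sets, in POR-null and in WT livers (n = 3 arrays a group), and in grey the POR-null response minus the WT response. The POR-null points lie between -0.26 and 0.37, the WT points lie between 0.10 and 0.49, and 6 of the 7 grey points lie below 0.

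Whether the response differed between genotypes was tested as an interaction, the POR-null response minus the WT response. It was below 0 for 6 of 7 probe sets (49.8% of all probe sets lay above 0), with a median of -0.19 against -0.001 over all. None passed the adjusted threshold, and 0% of all probe sets did. The middle Otc probe set had the lowest p, with an interaction of -0.64 ± 0.23 (95% interval -1.13 to -0.16; adjusted p = 0.803). It was the only member with an unadjusted p under 0.05, against 3.07% of all probe sets in that direction. The brightest Otc probe set gave -0.29 ± 0.19, Cps1 -0.24 ± 0.16 and Nags -0.19 ± 0.15. For Arg1 the interaction was -0.16 ± 0.14 (-0.46 to 0.15) and for Asl -0.12 ± 0.27 (-0.68 to 0.45), which leaves room for responses that are alike and for responses that differ by the size of the WT response itself. The dimmest Otc probe set gave 0.18 ± 0.15.

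The genotypes were also compared within each diet. The WT control arrays serve in this comparison and in the WT quercetin contrast, and the POR-null control arrays in this one and in the POR-null contrast, so that the values below are not separate evidence. On the control diet all 7 member probe sets averaged higher in POR-null livers (46.6% of all probe sets did), by a median of 0.19 against -0.0137 over all. None passed the adjusted threshold, which called 0.822% of all probe sets higher and 0.336% lower. Above 0 in this contrast lay 9 of 10 macrophage and Kupffer cell markers (median 0.46), of which 1 passed the threshold. Of hepatocyte markers 2 of 8 lay above 0 (median -0.05), of endothelial 7 of 8 and of stellate and matrix 6 of 8. For lymphoid, cholangiocyte, erythroid and exocrine pancreas markers it was 3 of 7, 2 of 6, 1 of 3 and 4 of 9. The part of these markers in the members' values was not tested. Asl averaged 11.67 ± 0.52 in POR-null and 11.21 ± 0.17 in WT control arrays (SD, n = 3 each), a difference of 0.46 ± 0.19 (SE; adjusted p = 0.248). Cps1 averaged 12.88 ± 0.24 in POR-null and 12.59 ± 0.13 in WT control arrays, a difference of 0.28 ± 0.12 (adjusted p = 0.247). These were the 2 members with an unadjusted p under 0.05 (7.87% of all, higher), and both rested on how POR-null control array 3 is treated. Without that array the differences were 0.75 for Asl (adjusted p = 0.00519) and 0.42 for Cps1 (adjusted p = 0.0451), both past the threshold. That fit called 607 of the 22626 probe sets, against 262 with all arrays. Each of the 2 genes passed in only 1 of the 6 fits that left out 1 array. In the other fits the adjusted p reached 0.602 for Asl and 0.543 for Cps1.

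Arg1 was 11.54, 11.60 and 11.43 in POR-null control arrays, against 11.19, 11.40 and 11.41 in WT control arrays. It was the only member whose POR-null arrays all lay above the WT arrays on the control diet (8.04% of all), with a difference of 0.19 ± 0.10 (adjusted p = 0.386). The brightest Otc probe set differed by 0.12 ± 0.14, the middle one by 0.27 ± 0.16 and the dimmest by 0.05 ± 0.11, and Nags by 0.03 ± 0.11, which turned to -0.0024 after quantile normalization. The middle Otc value was 0.063 without WT control array 3 and 0.449 without WT control array 1, and the brightest one's was -0.042 and 0.285.

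On the quercetin diet 4 of 7 probe sets averaged higher in POR-null livers (43.9% of all probe sets), and the member median was 0.04 against -0.0247 over all, turning to -0.023 after quantile normalization. No member passed the threshold, which called 1.75% of all probe sets higher and 0.579% lower. Of macrophage and Kupffer cell markers 8 of 10 lay above 0 here (median 0.25), of which 1 passed. Of hepatocyte markers 1 of 8 did (median -0.21), of endothelial 4 of 8 and of stellate and matrix 3 of 8. For lymphoid, cholangiocyte and erythroid markers it was 3 of 7, 2 of 6 and 1 of 3, and for exocrine pancreas 9 of 9 (median 1.00). The part of these markers in the members' values was not tested. Asl was 11.90, 12.13 and 12.09 in POR-null quercetin arrays, against 11.88, 11.65 and 11.57 in WT quercetin arrays. The groups did not overlap (11.9% of all, higher), and the difference was 0.34 ± 0.19 (adjusted p = 0.377). The middle Otc probe set averaged 7.63 ± 0.17 in POR-null and 8.00 ± 0.17 in WT quercetin arrays, a difference of -0.37 ± 0.16 (adjusted p = 0.260), and it alone had an unadjusted p under 0.05 (8.1% of all, lower). Arg1 differed by 0.04, or -0.023 after quantile normalization, and Cps1 by 0.04. Nags differed by -0.16 ± 0.11, the brightest Otc probe set by -0.17 ± 0.14 and the dimmest by 0.23 ± 0.11.

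**Figure D3:**
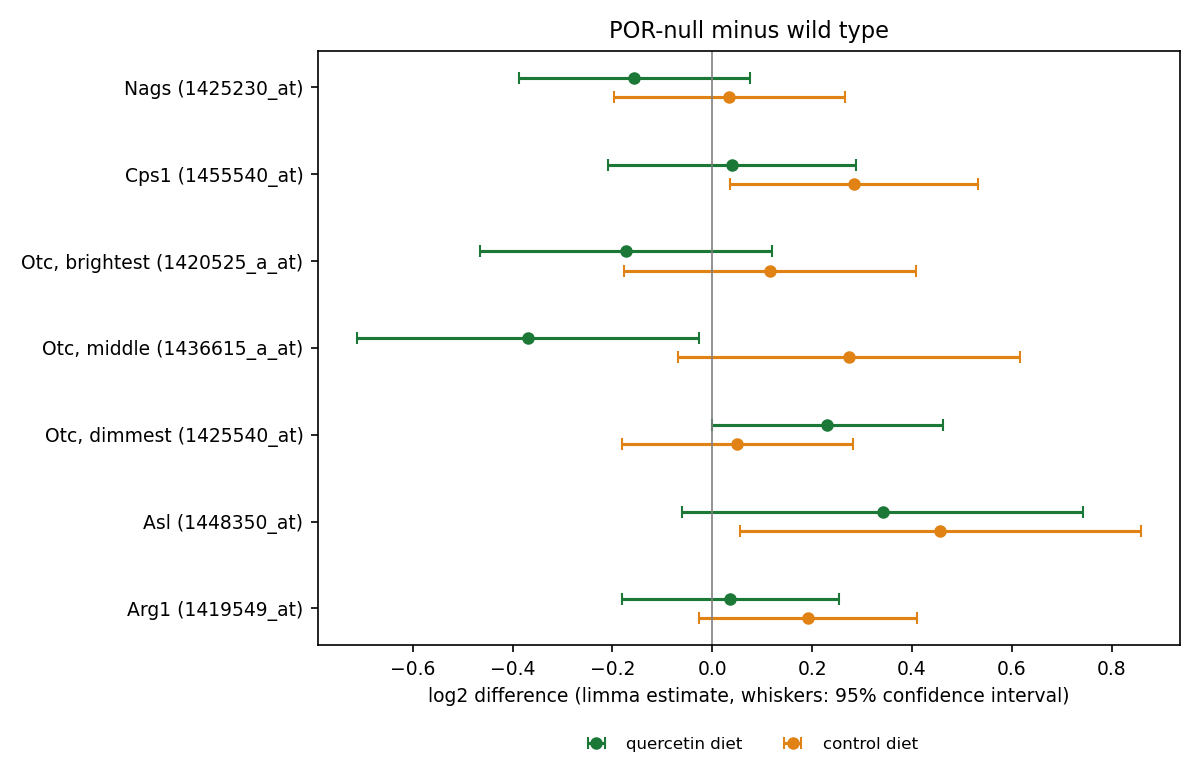
POR-null minus WT log2 difference with its 95% interval for each of the 7 probe sets, on the quercetin and on the control diet (n = 3 arrays a group). On the control diet the points lie between 0.03 and 0.46, and on the quercetin diet the middle Otc probe set lies lowest at -0.37.

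The members also differed in how tightly their arrays sat together. The SD within groups, pooled over the 4 groups, was 0.290 for Asl, 0.197 for the brightest, 0.234 for the middle and 0.145 for the dimmest Otc probe set, 0.160 for Cps1, 0.134 for Nags and 0.128 for Arg1. The median of all probe sets was 0.135, so that Asl, Cps1 and all 3 Otc probe sets varied more between pools of 1 group than the median probe set. The 95% interval of a difference between groups reached 0.24 to either side for the median of all probe sets.

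Around the cycle stand the enzymes and carriers that feed it nitrogen, aspartate and ornithine. The list of ammonia and arginine genes outside the members held 28 names, of which 25 were measured, each by its brightest probe set. For quercetin 0 of 25 passed the threshold in POR-null livers, in WT livers or averaged over both (2, 8 and 8 had an unadjusted p under 0.05 in limma, all higher on quercetin, against 3.53%, 4.27% and 4.54% of all probe sets). The list medians were 0.09 in POR-null livers, 0.06 in WT livers and 0.09 averaged, against -0.005, -0.0047 and -0.006 over all genes. The lowest p values of the averaged contrast belonged to Got1, Prodh and Oat. Got1, the cytosolic aspartate aminotransferase, averaged 11.87 ± 0.08 in POR-null quercetin and 11.54 ± 0.32 in POR-null control arrays, and 11.17 ± 0.12 in WT quercetin and 10.38 ± 0.41 in WT control arrays. Its averaged difference was 0.56 ± 0.13 (adjusted p = 0.232). Prodh, which starts proline breakdown, differed by 0.37 ± 0.09 (adjusted p = 0.266), and Oat, the ornithine aminotransferase, by 0.19 ± 0.06 (adjusted p = 0.346). Slc25a15, the mitochondrial ornithine carrier that Otc depends on, differed by 0.17 ± 0.12 in POR-null livers and by 0.37 ± 0.12 in WT livers (adjusted p = 0.436).

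Between genotypes, genes of this list did pass. On the control diet 5 of 25 rose and 0 fell in POR-null livers, against 0.822% and 0.336% of all probe sets. On the quercetin diet 3 rose and 1 fell, against 1.75% and 0.579% of all. The list median was 0.16 on both diets, against -0.017 and -0.027 over all genes. Oat averaged 12.01 ± 0.12 in POR-null control and 11.27 ± 0.02 in WT control arrays, a rise of 0.75 ± 0.08 (adjusted p = 0.000733), and it rose by 0.62 ± 0.08 on the quercetin diet (adjusted p = 0.00181). Got1 averaged 11.54 ± 0.32 in POR-null control and 10.38 ± 0.41 in WT control arrays, a rise of 1.16 ± 0.18 (adjusted p = 0.0106). Oat passed in all 6 fits that left out 1 array on either diet, and Got1 in all 6 on the control diet. Among the 9 alternatives that kept all arrays, Got1 passed in 8 on the control diet, with an adjusted p of up to 0.083. Its quercetin-diet difference of 0.71 ± 0.18 did not pass (adjusted p = 0.0527).

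The other calls of the list did not hold in every fit with 1 array left out. Gpt2, the mitochondrial alanine aminotransferase, rose by 1.10 ± 0.23 on the control diet (adjusted p = 0.0403). The glycerol and urea channel gene Aqp9 rose by 0.81 ± 0.18 (adjusted p = 0.0474), and the cationic amino acid transporter gene Slc7a2 by 0.80 ± 0.18 (adjusted p = 0.0480). Leaving out 1 array kept Gpt2 and Aqp9 past the threshold in 2 of 6 fits, those without WT control array 1 or POR-null control array 3, and Slc7a2 in 1, that without POR-null control array 3. On the quercetin diet Gpt2 rose by 1.16 ± 0.23 (adjusted p = 0.0179; 3 of 6 fits) and the mitochondrial malate dehydrogenase gene Mdh2 by 0.57 ± 0.12 (adjusted p = 0.0219; 1 of 6 fits). The glutamate dehydrogenase gene Glud1, whose enzyme frees ammonia from glutamate, averaged 11.16 ± 0.09 in POR-null and 11.63 ± 0.05 in WT quercetin arrays. It fell by 0.46 ± 0.09 (adjusted p = 0.0175; 2 of 6 fits), and its control-diet difference was -0.35 ± 0.09 (adjusted p = 0.0817).

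**Figure D4:**
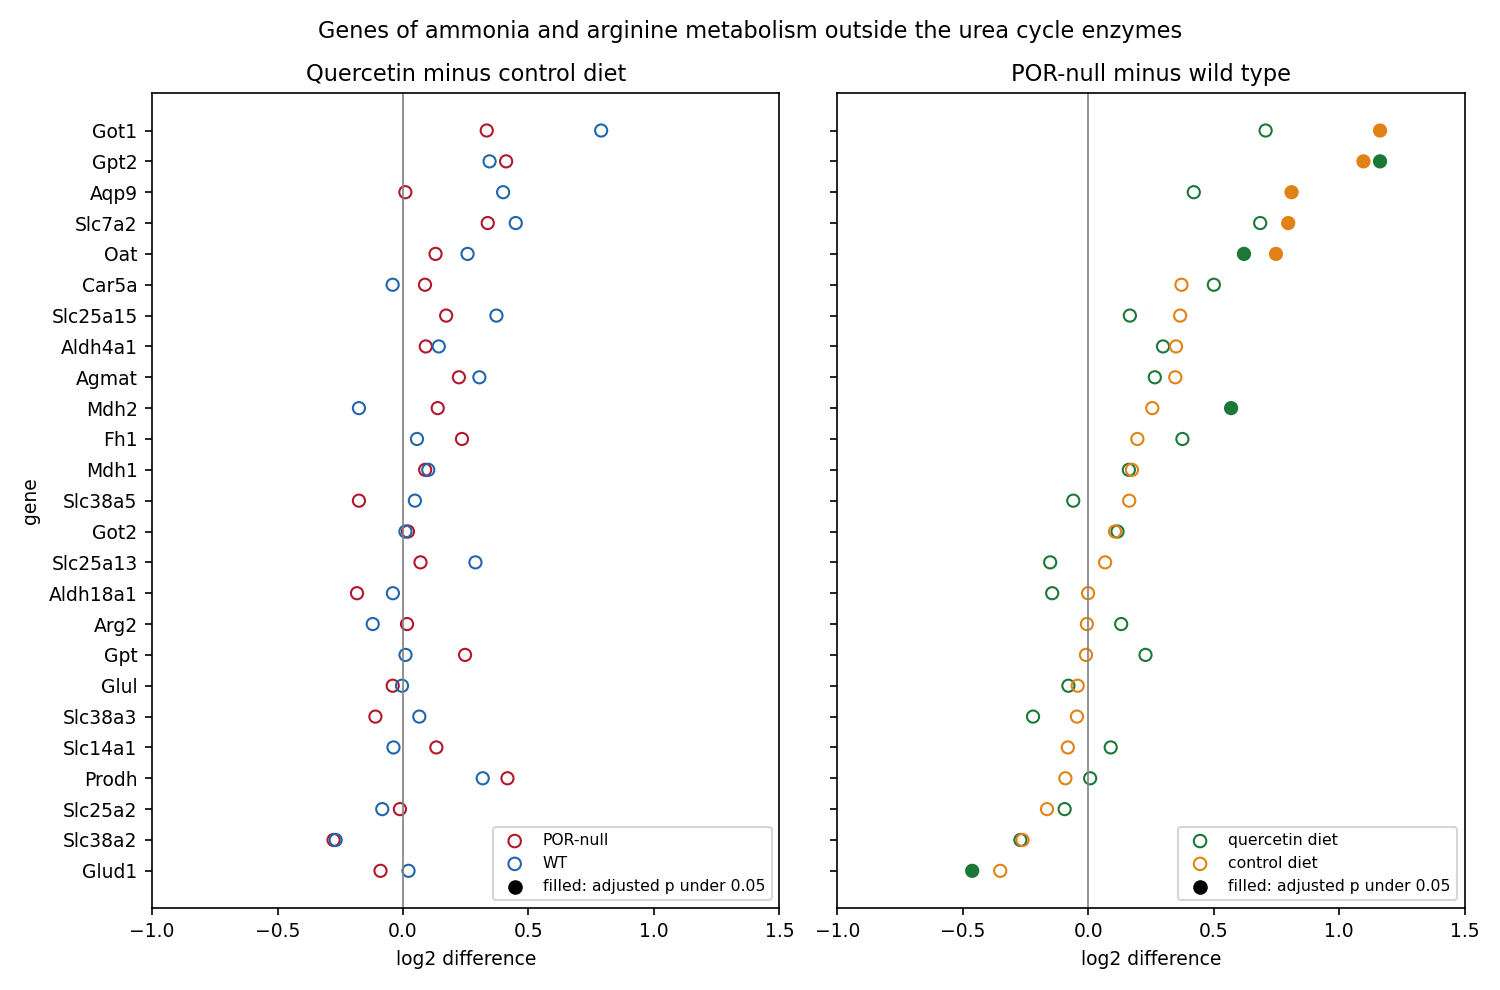
Log2 differences of the 25 measured ammonia and arginine genes, quercetin minus control in each genotype in the left panel and POR-null minus WT on each diet in the right panel, with genes past the adjusted threshold of 0.05 marked. No gene is marked for quercetin; between genotypes 5 are marked on the control diet and 4 on the quercetin diet.

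The genes whose levels followed the members most closely over the 12 arrays were sought among 7389 genes with a mean above the median of all values. These correlations are descriptions: the points share groups and pools, and the value in parentheses is the correlation within groups. Arg1 was followed by Plbd1 (r = 0.91; 0.69), the noncoding RNA gene Gas5 (r = 0.91; 0.84) and the mitochondrial ribosomal protein gene Mrps31 (r = 0.88; 0.83). Asl was followed by Eef1e1 (r = 0.94; 0.86), Mettl5 (r = 0.93; 0.87) and the sulfotransferase gene Sult5a1 (r = 0.92; 0.96). Sult5a1 was also the closest to Cps1 (r = 0.91; 0.92), ahead of the cytochrome P450 gene Cyp3a25 (r = 0.86; 0.85) and Mycbp2 (r = 0.84; 0.71). Otc was followed by the cytochrome P450 gene Cyp2c23 (r = 0.91; 0.90), Itm2b (r = 0.90; 0.87) and C1galt1 (r = 0.90; 0.89), and Nags by Gdpd5 (r = 0.87; 0.78), Polr3d (r = 0.85; 0.96) and Peg3 (r = 0.84; 0.74). The mean of the 5 measured genes was followed by the translation initiation factor gene Eif3e (r = 0.96; 0.89), Cyp3a25 (r = 0.92; 0.93) and Eef1e1 (r = 0.91; 0.72).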

How the data were processed

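Whole liver RNA was measured on 12 Affymetrix 430A arrays, 3 per group. The deposited values are log2 intensities; MAS5 and RMA are listed in the submitters' processing notes, and which of them made the values, with what background correction, is not given in the sources used here. No further normalization was applied. The 64 AFFX controls were left out, and 22626 probe sets were fitted with limma 3.58.1 in R 4.3.3 (1 mean per group over all 12 arrays, moderated tests with an intensity trend, two-sided, Benjamini-Hochberg over all probe sets, threshold 0.05). Genes were named from the platform annotation; 20380 probe sets carried 1 symbol, 691 several and 1555 none. The fit was tested on simulated data. Arrays number 3 per group, which limits the precision. Spread between pools is what the tests measure.

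All member probe sets are reported. List genes are named where they passed, otherwise the 3 with the lowest p in the averaged quercetin contrast and between genotypes on the control diet. Slc25a15, Glud1 on the control diet and the genes of the periportal and pericentral lists were named after their values were seen. Similar genes were the 3 with the highest Pearson correlation. The members and lists were chosen with earlier results of these data known. Replicate numbers were not used to pair arrays in the main fit. Deviations of same-numbered arrays correlated at -0.184 to 0.235 (median 0.045), those of differently numbered arrays at -0.219 to 0.223 (median -0.011). These overlapping ranges cannot exclude a pairing. Alternatives were quantile normalization, median centring, array weights, no trend, robust fitting, only the groups compared, no dim probe sets (lowest 40%), gene means, a replicate block and leaving out each array.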

Additional observations from a re-analysis of the deposited data

How the results depend on the processing

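The pairwise contrasts were refitted under 9 alternatives that kept all arrays, and the averaged contrast and the interaction under 8, since fitting only the groups compared applies to pairs. The dimmest Otc probe set had no value without dim probe sets, and it and the middle one none of their own with gene means. In these fits and those without 1 array, the only members past the threshold were Asl and Cps1 on the control diet without POR-null control array 3. Of 346 single probe set values under alternatives that kept all arrays, 2 changed direction, both after quantile normalization: Nags between genotypes on the control diet (-0.0024) and Arg1 between genotypes on the quercetin diet (-0.023). The member median for quercetin was 0.34 in WT without dim probe sets, and in POR-null livers 0.038 after quantile normalization and 0.030 without dim probe sets. The interaction median was -0.24 with array weights. The genotype median was 0.12 on the control diet after quantile normalization, and on the quercetin diet -0.023 after it and -0.06 without dim probe sets. Leaving out 1 array gave medians of 0.22 to 0.34 (quercetin in WT), 0.054 to 0.154 (in POR-null), 0.134 to 0.23 (averaged), -0.249 to -0.154 (interaction), 0.122 to 0.285 (genotype, control diet) and -0.067 to 0.051 (quercetin diet), and 0 to 2 members past the threshold on the control diet. It turned the direction for these values: Cps1 (-0.191 to 0.036) and the brightest Otc probe set (-0.121 to 0.043) for quercetin in POR-null; the middle Otc probe set (-0.0403 to 0.153) and Cps1 (-5e-04 to 0.113) averaged; the Asl interaction (-0.413 to 0.043); Nags (-0.0595 to 0.122), the brightest Otc probe set (-0.042 to 0.285) and the dimmest Otc probe set (-0.036 to 0.12) between genotypes on the control diet; and Arg1 (-0.067 to 0.132) and Cps1 (-0.017 to 0.109) on the quercetin diet. The ammonia and arginine list, recomputed by an addition made after seeing the data, had 5 genes past the threshold on the control diet. It had 3 with median centring, 3 without the trend, 2 with robust fitting, 3 with the replicate block, 1 with only the groups compared, 2 with gene means, and 2 to 7 leaving out 1 array. On the quercetin diet it had 7 with only the groups compared, and 1 to 4 leaving out 1 array. With the replicate block 0 member probe sets passed, as without it. Over all probe sets the 262 calls on the control diet became 30 with only the groups compared and 35 to 756 leaving out 1 array. The 527 calls on the quercetin diet became 1052 with array weights and 127 to 389 leaving out 1 array. For quercetin in WT there were 151 calls, no member among them, without WT control array 1. The cause was not tested.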

Other observations

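Regulators known to act on urea cycle transcription were counted as a list of 14 genes, all measured. For quercetin 0 of 14 passed limma's adjusted threshold in POR-null livers, in WT livers or averaged over both. At an unadjusted p under 0.05 in limma, 1, 1 and 2 were higher on quercetin, against 3.53%, 4.27% and 4.54% of all probe sets. Averaged over both, 1 was lower, a direction in which the share over all probe sets was not counted. Averaged over genotypes the lowest p values belonged to the glucagon receptor gene Gcgr (0.16 ± 0.06; adjusted p = 0.455), Onecut1 (-0.31 ± 0.14) and the bile acid receptor gene Nr1h4 (0.17 ± 0.08). Between genotypes on the control diet 0 of 14 passed. At an unadjusted p under 0.05 in limma, 1 was higher in POR-null livers, against 7.87% of all probe sets, and 2 were lower. The share of all probe sets lower at that p was not counted in this contrast. The differences were 0.35 ± 0.11 for Nr1h4 (adjusted p = 0.143), -0.30 ± 0.10 for Hnf4a (adjusted p = 0.160) and -0.30 ± 0.13 for Foxo1 (adjusted p = 0.285).

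Genes of the liver zones were counted too. Of 12 measured periportal genes, 0 passed in limma in any contrast. For quercetin 0 in POR-null livers, 2 in WT livers and 4 averaged had an unadjusted p under 0.05 in limma. All of these were higher on quercetin, against 3.53%, 4.27% and 4.54% of all probe sets. The periportal quercetin median was -0.06 in POR-null livers and 0.24 in WT livers, against -0.005 and -0.0047 over all genes. Averaged over genotypes the lowest p values belonged to genes of histidine breakdown: Hal (0.59 ± 0.11; adjusted p = 0.151), Ftcd (0.23 ± 0.09; adjusted p = 0.439) and Uroc1 (0.22 ± 0.09; adjusted p = 0.456). The histidine ammonia lyase gene Hal averaged 9.67 ± 0.24 in POR-null quercetin and 9.38 ± 0.23 in POR-null control arrays, and 10.09 ± 0.30 in WT quercetin and 9.19 ± 0.15 in WT control arrays (SD, n = 3 each). Its WT difference was 0.90 ± 0.16 (adjusted p = 0.197). On the control diet the lowest p values between genotypes belonged to G6pc (0.70 ± 0.18; adjusted p = 0.0739), Uroc1 (-0.39 ± 0.12; adjusted p = 0.130) and Aldh1b1 (0.49 ± 0.16; adjusted p = 0.156). The periportal POR-null minus WT median was 0.03 on the control diet and -0.34 on the quercetin diet, against -0.017 and -0.027 over all genes. On the quercetin diet 7 of the 12 were lower in POR-null livers at an unadjusted p under 0.05 in limma, against 8.1% of all probe sets. At that p 2 were higher, a direction in which the share over all was not counted. The lowest adjusted p there was 0.0552, for Ftcd (-0.48 ± 0.12). Of 14 measured pericentral genes, 4 rose in POR-null livers on both diets (Oat, Rhbg, Slc13a3 and Aldh1a1), against 0.822% of all probe sets on the control diet and 1.75% on the quercetin diet. The others did not pass, and 11 of the 14 lay above 0 on the control diet but 8 on the quercetin diet, where 6 lay below. On the control and the quercetin diet Glul differed by -0.04 and -0.08 and Cyp2e1 by 0.002 and -0.08. In that order of diets Lgr5 differed by 0.02 and -0.16 and Axin2 by -0.03 and -0.32. Slc1a4 differed by -0.03 and -0.07 and Cyp27a1 by 0.05 and -0.07. Cyp1a2 was higher in POR-null livers by 0.26 and 0.47, Slc1a2 by 0.23 and 0.34, Lect2 by 0.03 and 0.52 and Tbx3 by 0.07 and 0.13. On the control diet Rhbg rose by 0.84 ± 0.18, Slc13a3 by 0.80 ± 0.12 and Aldh1a1 by 0.58 ± 0.11. On the quercetin diet the rises were 1.34 ± 0.18, 0.63 ± 0.12 and 0.50 ± 0.11 in that order of genes. Rhbg passed in 2 of 6 fits with 1 array left out on the control diet (those without WT control array 1 or POR-null control array 3) and in 6 of 6 on the quercetin diet. Slc13a3 passed in 5 (not without WT control array 2) and 2 of 6 and Aldh1a1 in 2 and 1 of 6. For quercetin 0 of the 14 passed in limma. At an unadjusted p under 0.05, 1 in POR-null livers, 2 in WT livers and 2 averaged were higher on quercetin, against 3.53%, 4.27% and 4.54% of all probe sets. Averaged over genotypes the lowest p values belonged to Oat, Cyp27a1 (0.19 ± 0.06, adjusted p = 0.373) and Aldh1a1 (0.16 ± 0.08, adjusted p = 0.559).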
